A study of Rattus norvegicus with 6 samples.

Results

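Autophagosomes are double-membrane vesicles that enclose cytoplasm and deliver it to lysosomes for breakdown. The 10 genes described here code for proteins of that route. They are the fusion genes Stx17, Snap29 and Vamp8, the Atg8-family genes Gabarap, Gabarapl1, Gabarapl2, Map1lc3a and Map1lc3b, the cargo receptor gene Sqstm1 and the initiation gene Becn1. They were chosen by name around Stx17, whose difference between stressed and control animals in these libraries was already known, so that difference is given below as a description with no test. All 10 were among the 21170 genes listed, and each had at least 1 count. The samples were testes of SD rats, 3 normal animals and 3 that had been stressed with frightening sound. Neither age nor the length of exposure is stated in the labels. Tissue was dissociated, and each animal gave 1 GEXSCOPE single-cell library. The series addresses spermatogenesis under psychological stress.

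In autophagy, the Becn1 product is a subunit of the lipid kinase complex that marks the forming membrane. Atg8-family proteins are then coupled to lipid in that membrane, where they help it grow and hold cargo receptors such as the Sqstm1 product, also called p62. Once the vesicle has closed, Stx17 is recruited to its outer membrane and pairs with Snap29 and with Vamp8 on the lysosome to drive fusion. In the testis, meiotic spermatocytes give rise to round spermatids and these to elongating spermatids, which build the acrosome and shed cytoplasm. Autophagy genes are known from mouse knockouts to be needed for acrosome formation and spermatid shaping.

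The libraries held 2342, 1801 and 2453 cells from controls and 409, 2506 and 2233 from stressed animals, 11744 in all. They had 16756543 to 114984746 counts each and a median of 27987 to 41632 counts per cell, and 2 cell barcodes occurred in more than 1 library. Cells were clustered without the autophagy genes studied here and named by stage markers as spermatocyte-like (24 to 457 cells per library), round spermatid-like (125 to 1236) and elongating spermatid-like (113 to 1609). In each library the summed spermatocyte markers were highest in the first class, the round spermatid markers in the second and the elongating spermatid markers in the third. The same markers named the clusters, so this order describes the classes and is no separate check of the names. Stressed replicate 1 stood apart. It was the smallest library, and 144 of its 409 cells fell in a cluster led by Apoe and Fos, which held 3, 9 and 2 cells of the controls and 2 and 8 of the other stressed libraries and was kept out of the classes. The summed level of 16 macrophage markers in its spermatocyte-like cells was 1101 CPM (counts of a gene or list per 1000000 counts of the class in that library) against 65.4 to 82.8 CPM in controls. In its round spermatid-like cells it was 333 against 78.8 to 134 CPM, and in its elongating spermatid-like cells 619 against 59.3 to 86.6 CPM. Lists of other cell types were high in a stressed library too. In spermatocyte-like cells, stromal markers reached 1008 CPM in stressed libraries, against 11.6 to 21.7 CPM in controls. Spermatogonia markers reached 613 against 25.4 to 90.1 CPM there, while endothelial markers reached 9.32 against 6.92 to 9.80 CPM. The part of all these markers in the group results was not tested. Values without stressed replicate 1 are given for Stx17 in each class. For the other genes they are given for some results only. Below, ± is the SD over libraries. Levels are not compared between genes, since they were not scaled by gene length.

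Promoters of 3 members are shown because these genes had unlike patterns over the stages: Gabarapl1 climbed, Gabarapl2 was mostly counted in spermatocyte-like cells, and Stx17 is the gene the set was chosen around. Each line is the 250 bases before the RefSeq start in GRCr8, on the plus strand for all 3, from chr4:164666082-164666331 for Gabarapl1, chr19:56819576-56819825 for Gabarapl2 and chr5:67241493-67241742 for Stx17. Capitals mark GC boxes (GGGCGG or, on the other strand, CCGCCC) and the short cAMP response element (TGACG or CGTCA).
Gabarapl1: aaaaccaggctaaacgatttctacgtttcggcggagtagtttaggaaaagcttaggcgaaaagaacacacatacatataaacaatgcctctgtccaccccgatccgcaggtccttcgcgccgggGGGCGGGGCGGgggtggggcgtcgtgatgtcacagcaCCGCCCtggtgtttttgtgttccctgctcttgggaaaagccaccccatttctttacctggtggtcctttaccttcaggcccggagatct
Gabarapl2: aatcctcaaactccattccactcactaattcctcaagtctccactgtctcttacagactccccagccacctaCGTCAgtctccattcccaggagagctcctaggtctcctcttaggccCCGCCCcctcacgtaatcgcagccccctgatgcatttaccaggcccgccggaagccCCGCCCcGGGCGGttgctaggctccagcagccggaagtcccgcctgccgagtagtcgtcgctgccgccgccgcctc
Stx17: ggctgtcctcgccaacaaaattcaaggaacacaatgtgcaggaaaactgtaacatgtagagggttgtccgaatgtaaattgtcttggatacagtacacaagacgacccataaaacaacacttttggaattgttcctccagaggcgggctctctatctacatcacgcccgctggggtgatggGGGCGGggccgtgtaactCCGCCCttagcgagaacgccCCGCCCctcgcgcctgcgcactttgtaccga
The RefSeq table held a promoter for 8 of the 10 members. A GC box was present in 6 of these 8, among them the 3 shown, and in 32.4% of all 27457 promoters searched over the same length. The short cAMP response element was found in Gabarapl2 only, 178 bases before the start, and in 19.0% of all promoters. The full element TGACGTCA was in 0 of the 8 and in 1.70% of all promoters. The CACGTG box, the core of an element known from lysosome gene promoters, was found in Snap29 only, 150 bases before the start, and in 5.79% of all promoters. The searches covered both strands, and the full response element contains the short one. A match of letters is a description and does not show binding.

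Stx17 codes for the syntaxin that arms a closed autophagosome for fusion. In spermatocyte-like cells it was at 8.83, 9.83 and 9.997 CPM in control replicates 1, 2 and 3, and at 21.9, 24.5 and 34.1 CPM in stressed replicates 1, 2 and 3. The control levels in round spermatid-like cells were 1.88, 1.80 and 2.08 CPM and the stressed levels 4.92, 4.91 and 12.3 CPM. Every stressed library thus lay above every control library in both classes. The controls were at 2.30, 1.03 and 3.57 CPM and the stressed libraries at 1.38, 8.39 and 10.2 CPM in elongating spermatid-like cells. There the groups overlapped, because stressed replicate 1, with 7 counts in 2 of its 113 cells, fell among the controls. Groups that did not overlap, with the stressed animals above, were found for 1.92% of 9939 genes tested in spermatocyte-like cells, 2.26% of 12377 in round spermatid-like cells and 2.03% of 10689 in elongating spermatid-like cells.

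**Figure D1:**
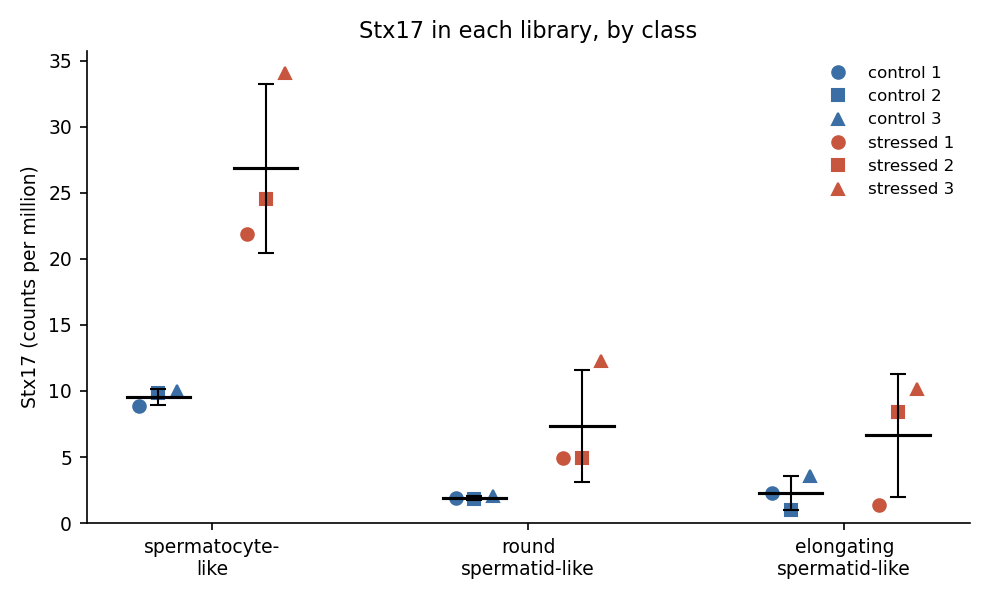
Stx17 level in CPM (vertical axis) for each of the 6 libraries in 3 classes. Each symbol is a library, the horizontal bar is the mean of 3 libraries and the whiskers are the SD. The stressed libraries lie above all controls in spermatocyte-like and round spermatid-like cells, and stressed replicate 1 lies among the controls in elongating spermatid-like cells.

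The mean Stx17 level in spermatocyte-like cells was 9.55 ± 0.629 CPM in controls and 26.8 ± 6.41 CPM in stressed animals (SD, n = 3 each), a log2 change of 1.58 (SE 0.44). The means in round spermatid-like cells were 1.92 ± 0.147 and 7.36 ± 4.24 CPM, a log2 change of 2.02 (SE 0.49). Those in elongating spermatid-like cells were 2.30 ± 1.27 and 6.64 ± 4.64 CPM, a log2 change of 1.63 (SE 0.70). Without stressed replicate 1 the 3 changes were 1.73, 2.25 and 2.09. Without stressed replicate 3, the library with the highest level in each class, they were 1.33, 1.44 and 1.18. The change was above 0 in 64 of 64 settings computed over the 3 classes and all cells together, from 1.18 to 2.25. These changes are given as description, since they were the reason for choosing the gene.

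Counts of Stx17 were thin. Control and stressed animals gave 270 and 603 in spermatocyte-like cells, 240 and 546 in round spermatid-like cells, and 302 and 811 in elongating spermatid-like cells. With each cell thinned to 10000 counts, the share of spermatocyte-like cells with a Stx17 count was 4.16%, 6.59% and 4.63% in control replicates 1, 2 and 3 and 16.7%, 12.5% and 15.1% in the stressed ones. The shares in round spermatid-like cells were 1.18%, 1.29% and 0.728% against 4.00%, 3.50% and 5.60%. The stressed shares were all above the control shares in these 2 classes. Those in elongating spermatid-like cells were 0.628%, 0.705% and 1.09% against 0, 3.92% and 4.94%, so the groups overlapped again. The 0 of 113 cells in stressed replicate 1 allows a share of up to 2.65%, counting 3 cells. Before thinning, the mean shares in controls and stressed animals were 8.80% and 22.5% in spermatocyte-like cells, 2.34% and 7.49% in round, and 1.67% and 5.02% in elongating spermatid-like cells. No cell was shallower than the thinned depth. No cell type here is known to lack Stx17, so a background share from free RNA was not measured. Intervals and limits cover counting error only. Leaving out the cell with most Stx17 counts in each library gave log2 changes of 1.66, 2.19 and 1.80 in the 3 classes.

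Among germ cell clusters, 15 had libraries of both groups with at least 20 cells, and in 11 of these every stressed library lay above every control library for Stx17. Stressed replicate 1 had too few cells in 10 of those 11, which therefore set only stressed replicates 2 and 3 against the controls. Over all genes with at least 10 counts in a cluster, 7.27% of the pairs of gene and cluster had groups apart with the stressed libraries above and 12% with them below. Only 2 controls had enough cells in the clusters led by Togaram1, Hspa1l, 1700122O11Rik, Hmgb2l1-2 and Tssk5. Where 2 controls met 2 stressed libraries, the share of genes with the stressed above was larger. It was 12.4% for Togaram1, 11.5% for Hmgb2l1-2 and 14.6% for Tssk5. Stressed replicates 2 and 3 were both above all controls present in 14 of the 15 clusters. The cluster led by Dcdc2c was the exception, with mean levels of 1.66 CPM in controls and 1.52 CPM in stressed libraries. Stressed replicate 1 had enough cells in 5 clusters and was above all controls in 1 of them, the round spermatid-like cluster led by Tmem123. The highest mean over libraries, 23.0 CPM, was in the spermatocyte-like cluster led by Hmgb2l1-2 and Psma8, a meiotic proteasome subunit gene. The clusters come from the same 6 animals and are not independent replicates.

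Snap29 codes for the SNARE protein that bridges Stx17 and Vamp8. In spermatocyte-like cells it was at 124, 92.1 and 59.2 CPM in controls and 158, 95.03 and 75.3 CPM in stressed animals, and the groups overlapped. Its levels in round spermatid-like cells lay between 17.6 and 28.3 CPM. Those in elongating spermatid-like cells lay between 1.77 and 12.4 CPM, and the lowest rested on 9 counts in stressed replicate 1. The log2 changes with stress were 0.31 (SE 0.35), -0.07 (SE 0.28) and -0.16 (SE 0.56) in the 3 classes in order of stage, with adjusted p of 0.996 to 1.00 by edgeR, and the threshold for a call, here and below, was 0.05. The changes in the spermatid classes were 0.03 and 0.29 without stressed replicate 1. They also turned without control replicate 1 in round spermatid-like cells (0.11) and without control replicate 3 in elongating spermatid-like cells (0.11).

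Vamp8, the lysosomal partner in that complex, was hardly counted. It had 129 counts in 26 of the 11744 cells. Its counts in controls and stressed animals were 14 and 3 in spermatocyte-like cells, 37 and 3 in round spermatid-like cells and 62 and 7 in elongating spermatid-like cells. It was too low to be tested in spermatocyte-like and round spermatid-like cells. In elongating spermatid-like cells its counts were 1, 16 and 45 in control replicates 1, 2 and 3 and 2, 5 and 0 in the stressed ones, and the log2 change of -2.24 (SE 1.54) did not pass (adjusted p = 1.00 by edgeR). Leaving out 1 library moved it between -3.13 (stressed replicate 1 left out) and -0.94 (control replicate 3 left out). The groups overlapped in every class for Snap29 and Vamp8. Stx17 was chosen for its difference and Vamp8 had few counts, so the 3 fusion genes cannot be set against each other on overlap.

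Between stages, Snap29 was highest in spermatocyte-like cells, and the order for Stx17 depended on the scaling. Per total counts, Stx17 was at 18.2 ± 10.3 CPM in spermatocyte-like, 4.64 ± 4.01 CPM in round spermatid-like and 4.47 ± 3.86 CPM in elongating spermatid-like cells (SD, n = 6 libraries). It was lower in round spermatid-like than in spermatocyte-like cells in 6 of 6 libraries, by a log2 change of -1.41 (SE 0.36, adjusted p = 0.00232 by edgeR). Snap29 fell from 100.6 ± 35.5 CPM to 20.5 ± 3.99 CPM at that step, in 6 of 6 libraries (log2 change -1.56, SE 0.33, adjusted p = 0.000567 by edgeR), and stood at 8.79 ± 3.89 CPM in elongating spermatid-like cells. From round to elongating spermatid-like cells Stx17 was lower in 3 of 6 libraries, and its test depended on the scaling. On the TMM scale described next, Stx17 was at 9.72 ± 6.25, 4.09 ± 3.53 and 10.6 ± 9.66 CPM in the 3 classes, with the elongating spermatid-like level above the spermatocyte-like one in 4 of 6 libraries. Snap29 on that scale was at 51.5 ± 13.7, 17.8 ± 2.67 and 20.6 ± 10.2 CPM, highest in spermatocyte-like cells in 6 of 6.

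That scaling matters for every comparison between stages. The fits scaled the sums with TMM factors, which ranged from 0.406 to 2.40 over the 18 sums and set the median log2 change of all genes to 0.18 from spermatocyte-like to round spermatid-like cells and to -0.30 from round to elongating spermatid-like cells. Scaling by total counts moved these medians to -0.54 and -1.66. Of 12600 genes tested, 64.6% were called at the first step with TMM and 58.5% at the second, and 73.5% and 72.1% with total counts. Of the 9 members tested, TMM called 1 higher and 4 lower at the first step, where 38.4% of all genes were higher and 26.2% lower, and total counts called 1 higher and 8 lower (30.4% and 43.1% of all genes). At the second step TMM called 4 higher and 0 lower (24.1% and 34.3% of all genes), and total counts called 1 higher and 5 lower (7.9% and 64.2%). Calls between stages were thus common among all genes, and a call by itself does not set a member apart. Stx17 rose by 1.34 on the log2 scale (SE 0.36, adjusted p = 0.00381 by edgeR) at the second step with TMM, and with total counts its change was -0.02 (adjusted p = 0.956 by edgeR).

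**Figure D2:**
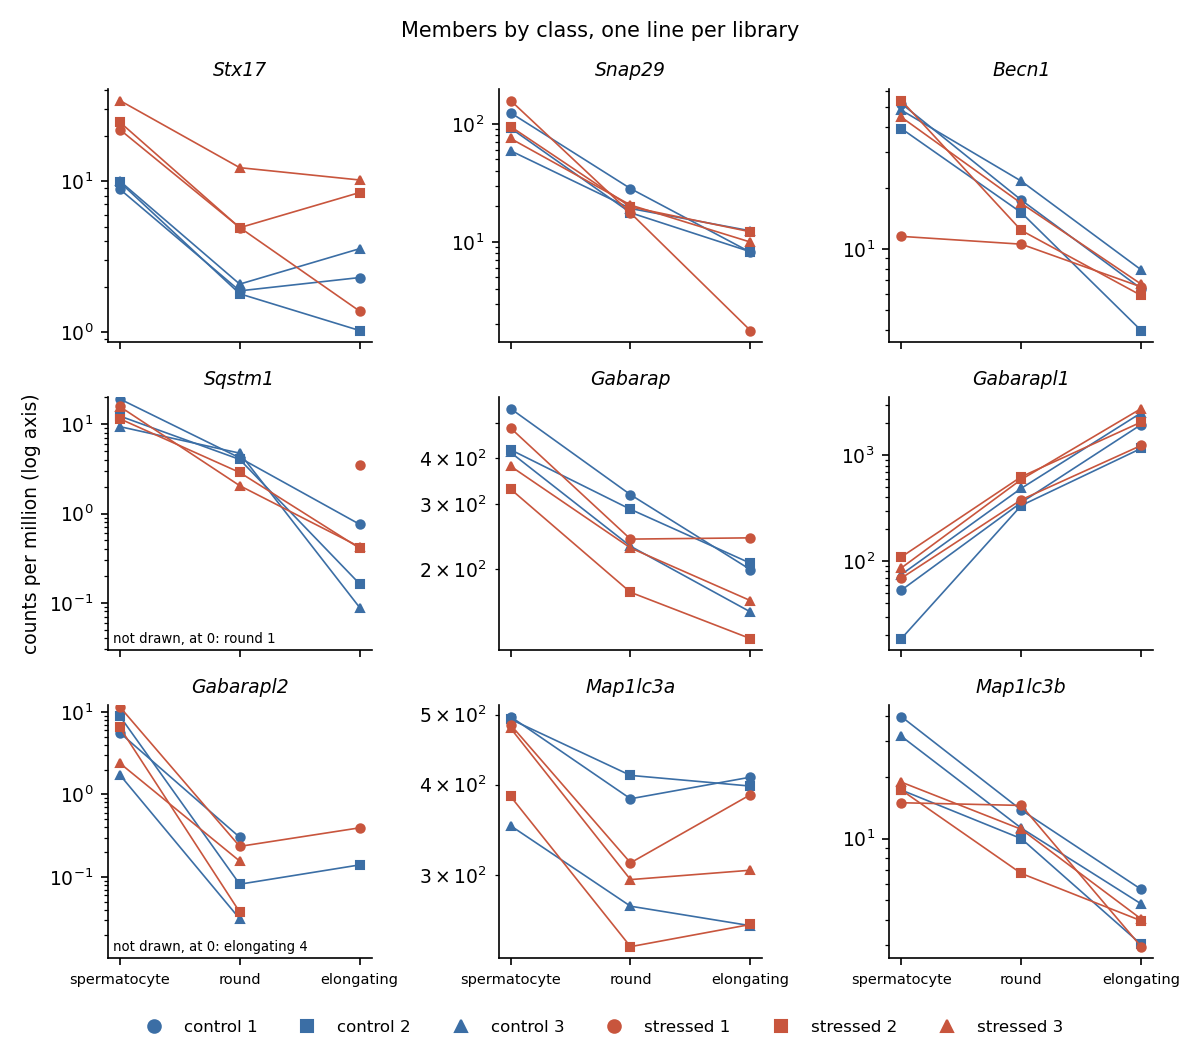
Level of 9 members in CPM of a class's total (vertical log axes, one panel per gene) over the 3 classes in order of stage. Each line joins the 3 classes of 1 library; values of 0 are not drawn and their number is written in the panel. Gabarapl1 climbs in all 6 libraries, while Snap29 and Becn1 are lower at both steps in all 6 on this scale, though with TMM their second steps were 0.19 and 0.02 on the log2 scale.

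Gabarapl1 was the 1 member that rose at both steps under both scalings. It codes for a Gabarap-type Atg8 protein, which acts late in autophagosome formation. In spermatocyte-like cells its levels were 53.2, 18.6 and 74.8 CPM in controls and 69.2, 109.6 and 86.4 CPM in stressed animals. Those in round spermatid-like cells were 358, 335 and 488 CPM in controls and 380, 627 and 591 CPM in stressed animals. Those in elongating spermatid-like cells were 1949, 1161 and 2515 CPM in controls and 1238, 2058 and 2760 CPM in stressed animals. The lowest library of each later class was thus above the highest of the class before it. Within a library the level was 5.50 to 18.1 times higher in round spermatid-like than in spermatocyte-like cells, and 3.26 to 5.44 times higher again in elongating spermatid-like cells. The log2 changes were 3.60 (SE 0.23, adjusted p = 3.50e-10 by edgeR) and 3.40 (SE 0.23, adjusted p = 8.27e-10 by edgeR), and 2.87 and 2.05 with total counts. Among all genes tested with TMM, 84.5% had a smaller or more negative change at the first step and 98.3% at the second.

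By cluster, Gabarapl1 lay between 46.9 and 75.7 CPM on average in the 2 spermatocyte-like clusters, and at similar levels of 56.8 and 58.3 CPM in the round spermatid-like clusters led by RGD1306233 and Tssk5. The round spermatid-like clusters led by 1700122O11Rik and Togaram1 were at 314 ± 104.2 and 376 ± 71.8 CPM, and those led by Tmem123 and Dcdc2c at 744 ± 229 and 1046 ± 370 CPM. All 7 elongating spermatid-like clusters were higher on average, from 1509 ± 375 CPM where Fam71a led to 2548 ± 825 CPM where the transition protein gene Tnp1 led. In this order the ranges of neighbouring clusters overlapped except at 2 places. The cluster led by ENSRNOG00000064423 reached 144 CPM and that led by 1700122O11Rik began at 218 CPM, and the cluster led by Togaram1 reached 468 CPM and that led by Tmem123 began at 491 CPM. The share of cells with a Gabarapl1 count, thinned to 10000 counts, was 8.38% to 17.9% over libraries in spermatocyte-like cells, 51.7% to 73.4% in round spermatid-like cells and 93.8% to 98.8% in elongating spermatid-like cells. Before thinning these ranges were 13.8% to 25.0%, 61.4% to 80.4% and 97.3% to 99.2%.

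**Figure D3:**
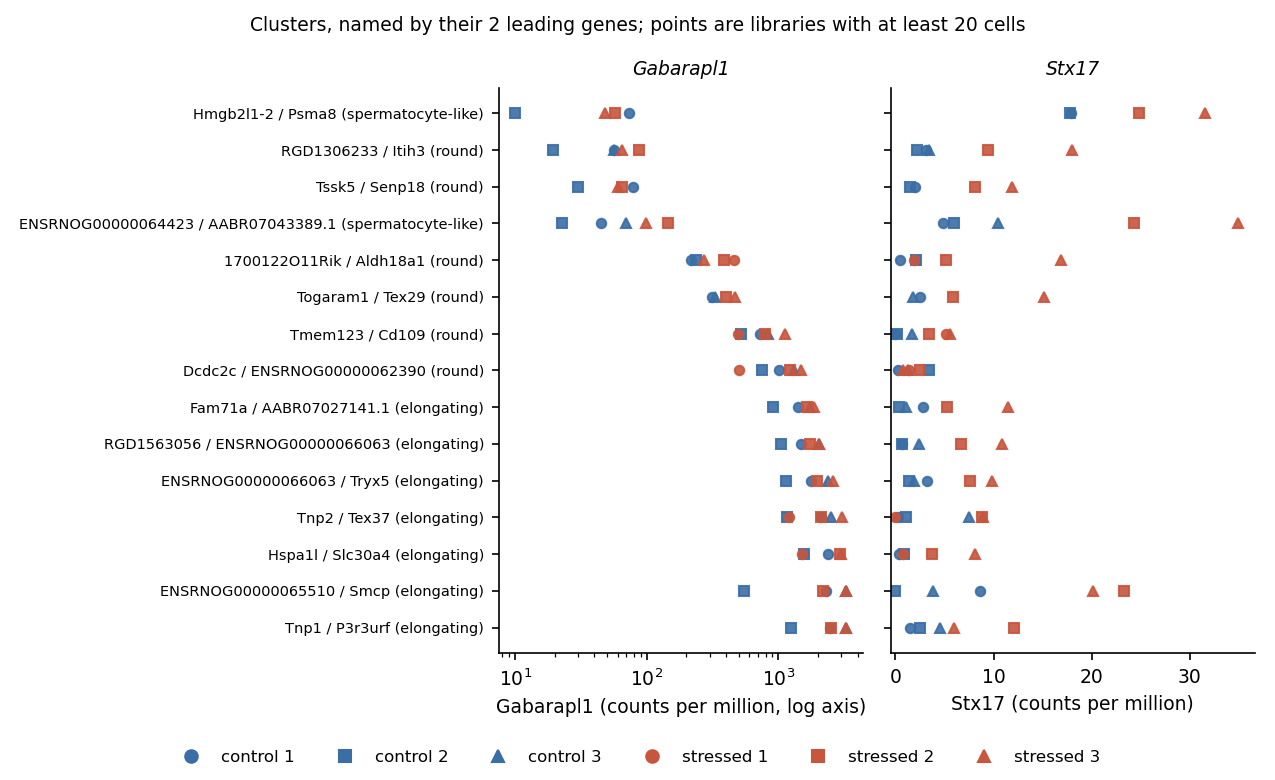
Gabarapl1 (left, log axis) and Stx17 (right, linear axis) in CPM for 15 germ cell clusters, ordered by mean Gabarapl1 level and named by their leading genes. Each point is a library with at least 20 cells of the cluster. Gabarapl1 spans 46.9 to 2548 CPM on average, and the Stx17 points of stressed replicates 2 and 3 lie above those of the controls in 14 of 15 clusters.

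Stress left Gabarapl1 without a call. The log2 changes were 0.91 (SE 0.49) in spermatocyte-like, 0.52 (SE 0.27) in round spermatid-like and 0.16 (SE 0.35) in elongating spermatid-like cells, with adjusted p of 0.995 to 1.00 by edgeR, and the groups overlapped in each class. The last of these was -0.19 without stressed replicate 3 and -0.10 without control replicate 2. The mean over stressed libraries was above the mean over controls in 15 of 15 clusters, with all stressed libraries above all controls in 4 (7.27% over all genes and clusters). The share of all genes with means in that direction was not computed. The clusters share the same animals, and stressed replicate 1 entered in only 5 of them. Some clusters had only 2 controls.

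Gabarap and Map1lc3a, the other Atg8-family genes with at least 7397 counts per group in each class, had no step between stages that passed in the same direction under both scalings. Gabarap was at 429 ± 76.1 CPM in spermatocyte-like, 247 ± 51.2 CPM in round spermatid-like and 183 ± 41.5 CPM in elongating spermatid-like cells. The first step was a log2 change of -0.07 (SE 0.11, adjusted p = 0.565 by edgeR) with TMM. It passed with total counts (-0.80), with RLE size factors (-0.28) and with DESeq2 (-0.28). The second was 0.91 (SE 0.11, adjusted p = 1.19e-06 by edgeR) with TMM and turned to -0.44 (adjusted p = 0.00107 by edgeR) with total counts, so no direction is given for it. Map1lc3a, which codes for an LC3-type Atg8 protein, was at 448 ± 63.3, 319 ± 66.3 and 335 ± 71.9 CPM in the 3 classes. Its first step was 0.23 (SE 0.11) with TMM, which did not pass (adjusted p = 0.0799 by edgeR), and -0.51 with total counts, which did. Its second step was 1.41 (SE 0.11) with TMM, which passed, and 0.07 with total counts, which did not.

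Between the groups, Gabarap in spermatocyte-like cells was at 546, 422 and 415 CPM in controls and 483, 330 and 381 CPM in stressed animals, and in round spermatid-like cells at 318, 291 and 231 against 241, 173 and 228 CPM. The groups overlapped in both. Its log2 changes were -0.15 (SE 0.23), -0.30 (SE 0.19) and -0.04 (SE 0.23) in order of stage. For Map1lc3a they were 0.09 (SE 0.22), -0.25 (SE 0.20) and -0.14 (SE 0.22). None of these passed (adjusted p of 0.995 to 1.00 by edgeR). Over clusters, the mean of the stressed libraries was above that of the controls in 1 of 15 for Gabarap and in 0 of 15 for Map1lc3a, and all stressed libraries lay below all controls in 6 and in 5 clusters (12% over all genes and clusters). In 10 of the 15 clusters no more than stressed replicates 2 and 3 entered, and some of the 15 had only 2 controls. The clusters share the same animals, and the share of all genes with means in that direction was not computed.

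Gabarapl2, also called Gate-16, was almost only counted before the spermatid stages. Of its 310 counts, 252 were in 80 spermatocyte-like cells, 21 in 18 round spermatid-like and 8 in 5 elongating spermatid-like cells. In spermatocyte-like cells it was at 5.60, 8.92 and 1.73 CPM in controls and 11.5, 6.50 and 2.40 CPM in stressed animals. In round spermatid-like cells it was between 0.0310 and 0.303 CPM, lower in 6 of 6 libraries (log2 change -4.56, SE 0.81, adjusted p = 9.73e-05 by edgeR, and -5.27 with total counts). Among elongating spermatid-like cells 4 libraries had no count, and 3 counts, the limit that 0 allows, would be 0.0512 to 0.0977 CPM in them. Within the spermatocyte-like cells its mean was 14.0 ± 6.72 CPM in the cluster led by Hmgb2l1-2 and Psma8 and 1.61 ± 1.40 CPM in the cluster led by ENSRNOG00000064423. The group difference in spermatocyte-like cells was 0.32 (SE 0.82, adjusted p = 1.00 by edgeR), and it was -0.11 without the cell with most counts in each library.

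Map1lc3b, the gene of the LC3 protein most used as an autophagosome marker, had a lower CPM at each later stage. It was at 23.3 ± 9.97 CPM in spermatocyte-like, 11.2 ± 2.80 CPM in round spermatid-like and 4.07 ± 1.03 CPM in elongating spermatid-like cells, lower at each step in 6 of 6 libraries. With TMM neither step passed (log2 changes -0.28, SE 0.28, and -0.11, SE 0.28), and with total counts both did (-1.02 and -1.46). In spermatocyte-like cells it was at 39.6, 17.3 and 31.7 CPM in controls and 15.0, 17.3 and 18.9 CPM in stressed animals, where control replicate 2 lay among the stressed libraries. That log2 change of -0.71 (SE 0.44) did not pass (adjusted p = 1.00 by edgeR), nor did those of -0.06 and -0.23 in the spermatid classes.

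Sqstm1 codes for the receptor that ties ubiquitinated cargo to Atg8 proteins. It was at 14.1 ± 3.60 CPM in spermatocyte-like, 2.99 ± 1.76 CPM in round spermatid-like and 0.898 ± 1.32 CPM in elongating spermatid-like cells. The log2 changes of -1.33 (SE 0.68) and -1.27 (SE 0.76) did not pass with TMM (adjusted p = 0.0936 and 0.167 by edgeR), and with total counts both passed (-2.02 and -2.64). Without stressed replicate 1 both also passed with TMM, at -1.16 and -2.04, and the first passed without control replicate 3 (-1.65, adjusted p = 0.0481 by edgeR). In round spermatid-like cells Sqstm1 was at 4.21, 4.04 and 4.75 CPM in controls and 0, 2.89 and 2.05 CPM in stressed animals, so the groups did not overlap. Groups apart with the stressed animals below were found for 5.91% of genes in that class. In stressed replicate 1 the value is 0 counts in 125 cells, which allows 0.703 CPM at 3 counts if counts are independent. They were clumped, with 306 counts in 39 cells of control replicate 3, so the true limit is higher. The log2 change of -1.16 (SE 0.78) did not pass (adjusted p = 0.995 by edgeR), and it was -0.68 without stressed replicate 1. In elongating spermatid-like cells the level of stressed replicate 1 was the highest, 3.54 CPM from 18 counts, against 0.0886 to 0.758 CPM in the other 5, and the log2 change of 1.95 (SE 1.14, adjusted p = 1.00 by edgeR) was 0.43 without it and 3.32 without control replicate 1.

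Becn1 codes for Beclin 1 of the kinase complex that starts the autophagosome membrane. It was at 41.6 ± 15.6 CPM in spermatocyte-like, 15.6 ± 3.92 CPM in round spermatid-like and 6.22 ± 1.29 CPM in elongating spermatid-like cells, lower at each step in 6 of 6 libraries. The first step passed with both scalings (log2 change -0.68, SE 0.26, adjusted p = 0.0289 by edgeR, and -1.41 with total counts), though with TMM it no longer passed when control replicate 1 or 2 or stressed replicate 2 or 3 was left out (log2 changes -0.51 to -0.71) or without the filter on low counts (-0.60). The second step was 0.02 (SE 0.26) with TMM, which did not pass, and -1.33 with total counts, which did. Stressed replicate 1 was low in spermatocyte-like cells, at 11.5 CPM from 10 counts, against 39.1 to 53.8 CPM in the other 5 libraries. The group change there was -0.21 (SE 0.49), and 0.18 without that library, so its direction rests on it. In the spermatid classes it was -0.37 (SE 0.32) and 0.10 (SE 0.41), and none passed (adjusted p of 0.995 to 1.00 by edgeR). Like Gabarapl2, it was higher in the cluster led by Hmgb2l1-2 and Psma8 (78.8 ± 14.0 CPM) than in the other spermatocyte-like cluster (30.7 ± 8.40 CPM), with no overlap between libraries.

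Reads of Gabarap, Gabarapl2, Map1lc3b and Sqstm1 could be shared with pseudogenes, since RefSeq names 3, 3, 2 and 1 after them and the tables list none of these, so their counts are uncertain to that extent.

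Across the 9 members other than Stx17, no difference between stressed and control animals passed the test. Stx17 is left out here because it was chosen for its difference, and not because it passed. Of the 9 members, 8 could be tested in spermatocyte-like, 7 in round spermatid-like and 8 in elongating spermatid-like cells. None was called in a class where edgeR called 0 of 9939 genes (0%), 2 of 12377 (0.0162%) or 1 of 10689 (0.00936%), and with all cells of a library summed, it called 1 of 14519 genes (0.00689%) and none of the 9. At an unadjusted p under 0.05 there were 187, 324, 188 and 200 genes in these 4 comparisons, and DESeq2 called 3, 7, 1 and 3 genes, none of them among the 9. The log2 changes of these members ran from -0.71 to 0.91 in spermatocyte-like cells, from -1.16 to 0.52 in round spermatid-like cells and from -2.24 to 1.95 in elongating spermatid-like cells. The medians over those tested were 0.12, -0.25 and -0.09, beside -0.01, -0.0021 and -0.02 over all genes. In simulated counts, these tests recovered 8%, 6% and 1% of genes changed by 1 on the log2 scale, in order of stage. Of genes changed by 2 they recovered 46%, 28% and 37%. The lack of a call therefore does not show that a member was unchanged. The test of whether the group change differed between neighbouring stages called 0 of 12600 genes at either step (0%, with 427 and 267 at an unadjusted p under 0.05). With cells thinned to 10000 counts, 27 exact permutation tests of the share of cells with a count, 2-sided and over 9 members and 3 classes, gave no p below 0.1, which is the smallest 3 against 3 libraries allow. That value was reached by Gabarapl1 in spermatocyte-like cells (10.7% in controls and 17.001% in stressed animals, 19.8% and 22.5% before thinning) and Sqstm1 in elongating spermatid-like cells (0.0970% and 1.11%, 0.471% and 1.58% before thinning), and every adjusted p was 1.00. With 5000 counts per cell the exact permutation p of these 2 was 0.2 and 0.5. At that depth Becn1 in round spermatid-like cells reached 0.1 (6.76% in controls and 4.38% in stressed animals, 16.7% and 14.8% before thinning), with an adjusted p of 1.00.

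**Figure D4:**
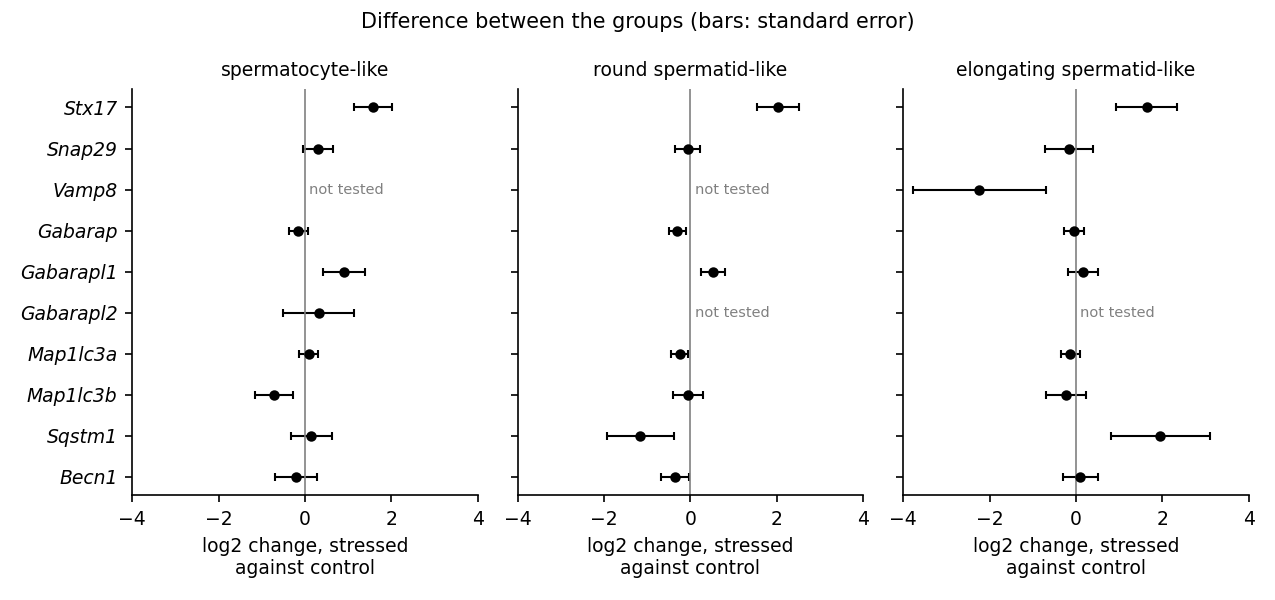
Log2 change of each member in stressed against control animals (horizontal axis) in the 3 classes, with the standard error as a bar. Genes too low for a class are marked as not tested. Stx17 lies at 1.58, 2.02 and 1.63, given as description with no test result, which does not mean that it passed. None of the other members passed the adjusted threshold.

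Other genes of the route were taken from 8 lists, 97 of whose 102 genes were in the tables. Between the groups 0 of them was called in any class, with 64, 69 and 57 tested. The median log2 changes were -0.03, -0.01 and -0.01, beside -0.01, -0.0021 and -0.02 over all genes. By list, the medians in spermatocyte-like cells ran from -1.19 over 5 class III PI3-kinase genes to 0.11 over 11 lysosome genes. Those in elongating spermatid-like cells ran from -0.52 over 8 membrane supply genes to 0.47 over 15 lysosome genes, a list that holds genes also used by macrophages, whose markers were higher in stressed replicate 1, and the part of that library in this median was not tested.

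Between stages, 73 of these genes were tested. With TMM 12 were higher and 27 lower in round spermatid-like than in spermatocyte-like cells, where 38.4% of all genes were called higher and 26.2% lower. At the second step 14 were higher and 22 lower (24.1% and 34.3% of all genes). With total counts the numbers were 9 and 44 at the first step (30.4% and 43.1% of all genes) and 3 and 51 at the second (7.9% and 64.2%). At the first step the tethering and fusion list had 0 higher and 11 lower of 16 with TMM and 0 and 13 with total counts, the initiation complex list 0 and 3 of 4 and then 0 and 4, and the PI3-kinase list 0 and 3 of 5 and then 0 and 4. The cargo receptor list had 3 higher and 2 lower of 8 and then 3 and 4, and the lysosome list 6 and 4 of 16 and then 3 and 7.

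Of the 16 tethering and fusion genes tested, the 11 called lower at the first step with TMM included Ykt6, Vps39 and Atg14. Ykt6, a SNARE that can serve in place of Stx17, went from 15.6 ± 8.84 CPM in spermatocyte-like to 2.30 ± 1.49 CPM in round spermatid-like and 0.362 ± 0.324 CPM in elongating spermatid-like cells, and passed at both steps with both scalings (log2 changes -2.17 and -1.23 with TMM). Vps39, a subunit of the tether that holds autophagosomes at lysosomes, went from 11.05 ± 5.45 to 1.70 ± 0.581 CPM at the first step (-1.94, adjusted p = 0.000905 by edgeR), and was lower at the second with total counts (-2.26), where TMM made no call. Atg14, which also helps Stx17 complexes to tether, went from 5.67 ± 2.90 to 0.880 ± 0.464 CPM (-1.89, adjusted p = 0.00827 by edgeR). Rab7a, the late endosome GTPase, did not pass at that step (0.02 with TMM, -0.71 with total counts), and was called lower at the second with total counts only (-2.42). Vps33a and Epg5, other tethering genes, were too low to be tested.

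Of the upstream genes, several fell with the first step. Rb1cc1, the scaffold of the initiation kinase, was at 579 ± 70.3 CPM in spermatocyte-like and 277 ± 29.1 CPM in round spermatid-like cells (log2 change -0.34, SE 0.12, adjusted p = 0.0226 by edgeR), and its second step turned from 0.98 with TMM to -0.36 with total counts. The kinase gene Ulk1 was too low to be tested. The lipid kinase Pik3c3 and its partner Pik3r4 fell at the first step, by 3.15 and 2.27 on the log2 scale with TMM. The membrane protein Vmp1 was at 5.61 ± 3.40 CPM in round and 0.167 ± 0.108 CPM in elongating spermatid-like cells (-3.28, adjusted p = 5.77e-05 by edgeR). For the lipid carrier Atg9a, the second step was 1.80 with TMM, which passed, and 0.45 with total counts, which did not. Of the genes that couple Atg8 proteins to lipid, Atg3 was at 42.9 ± 14.5 CPM in round and 6.24 ± 2.06 CPM in elongating spermatid-like cells (-1.45, SE 0.30, adjusted p = 0.000524 by edgeR), and the Atg8 protease Atg4b fell at the first step (-1.66). Atg5 did not pass at either step with TMM and fell at the second with total counts (-2.56, adjusted p = 0.00931 by edgeR). Atg7 did not pass at either step with either scaling, and Atg16l1 was too low to be tested.

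The cargo receptor genes Nbr1 and Optn rose at the second step under both scalings. Nbr1 climbed from 15.1 ± 6.19 through 46.0 ± 18.3 to 96.6 ± 21.1 CPM, with log2 changes of 2.25 and 2.45 with TMM and 1.52 and 1.10 with total counts, all of which passed. Optn was at 110.2 ± 14.8 CPM in round and 188 ± 39.6 CPM in elongating spermatid-like cells (2.10 with TMM and 0.76 with total counts, both passing). Bnip3l, a receptor for mitochondria, fell at both steps (-1.01 and -1.02 with TMM, adjusted p = 0.00805 and 0.00843 by edgeR). Of the lysosome membrane genes, Lamp2 rose from 30.6 ± 25.6 to 84.8 ± 18.0 CPM and then fell to 8.42 ± 2.78 CPM under both scalings, and Lamp1 was at 208 ± 26.2, 213 ± 31.4 and 161 ± 14.9 CPM, with a second step that turned from 0.95 to -0.39 with total counts. The regulator Mtor did not pass at either step with TMM and fell at both with total counts (-1.22 and -1.63, adjusted p = 0.00224 and 0.000209 by edgeR). The protease gene Ctsd and the regulator gene Tfeb were too low to be tested.

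The genes whose log2 levels followed Stx17 most closely over the 18 sums of library and class were Tdrd3 (Pearson r = 0.80), AABR07047237.1 (0.78), ENSRNOG00000067480 (0.77), Poteg (0.75) and Bag4 (0.73), of 12599 genes compared. The 18 points share 6 libraries and 3 classes, so r is a description. They include both groups, so a gene picked for following Stx17 can share its group difference through that choice. The group levels below are therefore description too. The correlation was computed on the TMM scale, while the levels that follow are per total counts. Tdrd3, a Tudor domain gene, was at 124 ± 19.0 and 176 ± 34.8 CPM in spermatocyte-like cells of controls and stressed animals. In round spermatid-like cells it was at 54.6 ± 5.76 and 64.3 ± 9.40 CPM and in elongating spermatid-like cells at 30.7 ± 4.08 and 42.6 ± 5.33 CPM. For Poteg the means in controls and stressed animals were 973 and 1052 CPM in spermatocyte-like, 381 and 396 CPM in round spermatid-like and 180 and 223 CPM in elongating spermatid-like cells. For Bag4, which codes for an Hsp70 cochaperone, they were 88.8 and 104.7, 42.6 and 40.5, and 21.8 and 24.5 CPM in the same order.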

How the data were processed

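Single-cell RNA was sequenced from testes of 3 control and 3 stressed rats, 1 GEXSCOPE library each, per the labels' protocols. The authors deposited a table of whole-number counts per gene and cell and a normalized table for each library. No aligner, genome build or counting rule is stated in the labels or headers, and reads cannot be told from molecules in the counts, so intervals cover counting error only. Intervals and limits on counts take each count as independent, and are too narrow where single cells hold many counts of a gene. The normalized table was checked to be the natural log of 1 plus the deposited count scaled to 10000 per cell (0 values off, tolerance 1e-09), and was not used further. All deposited cells were kept, and none had 5% or more mitochondrial counts.

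Cells were clustered with scanpy 1.11.5 and leidenalg 0.10.2 (Python 3.11.15; 2000 variable genes, of which 1980 were used after mitochondrial genes and the autophagy genes studied here were left out, 30 principal components, 15 neighbours, resolution 1) and named from marker lists, of whose 142 genes 130 were in the tables. Scrublet, run in scanpy 1.11.5, marked 73 cells (0.622%) as doublets, and none was removed. For each class, a library with at least 20 cells gave 1 sum of counts, and the sums were tested with edgeR 4.0.16's quasi-likelihood test (R 4.3.3, TMM, genes with low counts removed, Benjamini-Hochberg adjustment over all genes, threshold 0.05); the fits between stages kept the library as a term. DESeq2 1.42.0 was an alternative. Each library is 1 animal, so p-values between the groups set a difference against the spread between these animals. Those between stages set a change within animals against how that change varied from animal to animal.

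The same-numbered control and stressed libraries did not deviate together (correlations of -0.14, -0.01 and 0.21), so the numbers were not treated as pairs. The members and gene lists were chosen with earlier results of these data known. Beside the members, a written selection of genes of the 8 other autophagy lists were named whatever their values, with the 5 genes whose log2(TMM-scaled CPM + 1) correlated most with Stx17. Scripts were tested on simulated counts. Promoters are RefSeq's, in GRCr8.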

Additional observations from a re-analysis of the deposited data

Results flagged for a closer look

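Gabarap was counted in the cluster led by Apoe and Fos, whose cells enter none of the comparisons between classes. In the 144 cells of stressed replicate 1 it was at 306 CPM (95% exact Poisson interval 293 to 320, counting error only), from 1972 counts in 101 cells. With so many counts per cell, that interval is too narrow. The 14 control cells of that cluster had 109 counts, a level of 189 CPM with an upper bound of 228 CPM. Other members did not all go that way. Map1lc3a was lower in stressed replicate 1, at 366 CPM (interval 351 to 381) against 535 CPM in the control cells. Gabarapl1 was lower too, at 1476 against 1691 CPM, as was Becn1, with 1 count against 3. Stx17, Snap29, Vamp8, Gabarapl2, Map1lc3b and Sqstm1 were higher, but had at most 2 control counts each. All these levels come from 1 stressed library and few control cells, and the differences were not tested.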

How the results depend on the processing

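Of the values for stressed against control animals under each alternative, 387 kept their direction and side of the threshold and 24 turned. These counts include the values of Stx17, which are a description and no support for its difference. Between stages 199 kept direction and side, 15 turned, 14 passed the threshold only under the alternative and 6 no longer passed. The count of genes called in spermatocyte-like cells was 2 without a filter on low counts and 3 with DESeq2. In round spermatid-like cells it was 7 with DESeq2, 0 with the replicate block and 0 to 3 with 1 library left out. In elongating spermatid-like cells it was 0 to 1 with 1 library left out. In all cells together it was 2 without the filter, 3 with DESeq2 and 0 to 3 with 1 library left out. With the replicate number as a block, the Stx17 changes were 1.54, 1.90 and 1.43 in the 3 classes, and the block turned no member's direction between the groups.

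For stressed against control animals, Gabarapl2 in spermatocyte-like cells was -0.11 without the top cell of each library and -0.16 to 0.83 with 1 library left out, where Map1lc3a was -0.011 to 0.19, Sqstm1 -0.0094 to 0.45 and Becn1 -0.55 to 0.18. In round spermatid-like cells, Snap29 was 0.036 at clustering resolution 2 and -0.19 to 0.11 with 1 library left out. Map1lc3b was 0.0094 when clustered with the autophagy genes, 0.068 at resolution 2 and -0.27 to 0.15 with 1 library left out. In elongating spermatid-like cells, leaving out 1 library gave -0.57 to 0.29 for Snap29, -0.24 to 0.12 for Gabarap, -0.19 to 0.47 for Gabarapl1 and -0.14 to 0.37 for Becn1. With the cluster led by Apoe and Fos counted as elongating, a setting chosen after seeing the data, Gabarap was 0.094, Map1lc3b 0.17 and Becn1 -0.15. Becn1 was -0.32 without the top cell.

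Between spermatocyte-like and round spermatid-like cells, Map1lc3a was -0.51 with total counts, a scaling also chosen after seeing the data. Between round and elongating spermatid-like cells total counts gave -0.023 for Stx17, -1.18 for Snap29, -0.44 for Gabarap and -1.33 for Becn1. Map1lc3b was 0.13 with RLE size factors, 0.17 with DESeq2, 0.11 with the Apoe and Fos cluster counted as elongating and -0.29 to 0.12 with 1 library left out. Becn1 was -0.056 without the filter, -0.12 with that cluster and -0.063 to 0.13 with 1 library left out, and Gabarapl2 was -1.74 to 0.074. The cause of these turns was not tested. Depth limits Vamp8 and Gabarapl2 most, with 129 and 310 counts in all cells.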
